A study of Mus musculus with 7 samples.

Results

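RNA-Seq of mouse knee cartilage 2 weeks after destabilization of the medial meniscus (DMM), a surgery that induces osteoarthritis, was examined for 9 genes of iron uptake, storage and regulation. The genes were Tfrc, Steap3, Slc11a2, Slc25a37, Slc25a28, Fth1, Ftl1, Aco1 and Ireb2, and each was taken as the row of the deposited table that carried exactly that symbol. All 9 were found among 55401 genes, and all 9 passed the filter on low counts, which left 16429 genes for testing. The samples were 4 WT and 3 Trpc1-/- by their labels, whereas the Methods give the reverse numbers, and the labels were used. All came from C57BL/6J males that were 10 weeks old at DMM, and each sample pooled the right knees of 2 to 3 mice. The knockout lacks Trpc1, which encodes a calcium channel, in every tissue of the body, through loss of an exon that encodes a transmembrane segment, and the WT mice came from the same colony. Besides cartilage, the samples contained subchondral bone, according to the Methods. In such bulk tissue, fewer cells of a type and less RNA per cell cannot be told apart.

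Iron in the blood is carried by transferrin, which cells take up through the transferrin receptor. Inside the endosome the iron is reduced by Steap3, leaves through Slc11a2 and is then used in mitochondria, stored in ferritin or exported, and the developing red blood cells of the marrow are its largest consumers because they make heme. The proteins encoded by Aco1 and Ireb2 bind a hairpin in mRNA, the iron-responsive element (IRE), when iron is scarce: binding in a 3' UTR protects the transferrin receptor mRNA from decay, and binding in a 5' UTR blocks translation of the ferritin mRNAs.

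These hairpins are shown because they sort the genes by the side of iron metabolism that each serves. The GENCODE M21 transcripts were searched, on the transcript strand, for the loop CAGTGN after an unpaired C, closed by a stem of 5 base pairs and a lower stem with at least 4 of 6 positions paired, G-U pairs allowed. A match was found in 47 of 21901 protein-coding genes (0.215%), and in 3 of the 9 genes, Tfrc, Fth1 and Ftl1. Of 6 other genes known to carry an IRE, 3 had a match, and those of Alas2, which starts heme synthesis in red cells, and Slc40a1, the iron exporter ferroportin, are shown for comparison. Each run is 29 bases from 5' to 3', and capitals mark the 6 bases of the loop.
Tfrc 3' UTR, chr16:32631219-32631247, plus strand: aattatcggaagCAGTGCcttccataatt
Tfrc 3' UTR, chr16:32631598-32631626, plus strand: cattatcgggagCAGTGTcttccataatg
Tfrc 3' UTR, chr16:32631663-32631691, plus strand: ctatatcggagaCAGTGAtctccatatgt
Tfrc 3' UTR, chr16:32631710-32631738, plus strand: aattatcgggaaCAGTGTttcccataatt
Fth1 5' UTR, chr19:9982732-9982760, plus strand: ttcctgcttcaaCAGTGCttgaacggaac
Ftl1 5' UTR, chr7:45459779-45459807, minus strand: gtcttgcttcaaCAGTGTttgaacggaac
Alas2 5' UTR, across an exon junction between chrX:150547458 and chrX:150552149, plus strand: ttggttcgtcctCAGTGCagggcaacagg
Slc40a1 5' UTR, chr1:45925465-45925493, minus strand: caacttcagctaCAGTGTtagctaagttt
Coordinates are those of GRCm38. The 4 Tfrc matches lay in the 3' UTR, and the other 4 lay in a 5' UTR. A match describes the letters alone, and its absence from the other genes says nothing about binding to them.

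No gene of the 9 differed between genotypes past the threshold. With edgeR's quasi-likelihood test and Benjamini-Hochberg adjustment over all tested genes, 0 of 9 had an adjusted p under 0.05, where 0% of all tested genes did. At an unadjusted p under 0.05 the count was again 0 of 9, against 10.0% of all genes (1643 of 16429). DESeq2 called 0 of 9, against 1.79% of all genes, and limma-voom called 0 of 9, with 1 gene called in all. The samples of the genotypes overlapped for each of the 9, whereas for 13.6% of all genes every sample of a genotype lay above every sample of the other. In direction, the Trpc1-/- samples had the higher mean for 7 genes and the lower for 2, with a median log2 fold change (log2FC) of 0.10. Over all tested genes the median was -0.0088, with 7904 higher and 8525 lower. The largest estimates were those of Ftl1, Fth1 and Slc25a37, all higher in Trpc1-/- samples, with intervals that included 0.

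WT replicate 1 was the shallowest library and was the highest or the lowest WT sample for all 9 genes. The counts of the 7 samples summed to between 52142451 (WT replicate 1) and 118254070, so that a floor of 3 counts, which covers counting error only, lay at 0.0254 to 0.0575 CPM. CPM here is a gene's count scaled to a common library total, and levels below are CPM normalized by the trimmed mean of M values (TMM). Trpc1 itself had 4.83, 4.55, 4.77 and 4.33 CPM in WT replicates 1 to 4 and 3.35, 3.79 and 3.04 CPM in Trpc1-/- replicates 1 to 3. Its log2 fold change was -0.44 (SE 0.13, adjusted p = 0.407 by edgeR and 0.05001 by DESeq2), past neither threshold. The counts cover the whole gene, so they can show a lower level but not loss of the exon. For the 9 genes and the named genes of the other iron lists, estimates without WT replicate 1 are given where they turned direction or moved by over 1.5 times. Each sample's column in the deposited table is named with a number whose meaning the labels do not state. WT replicates 1 and 2 and all Trpc1-/- samples had column numbers in the 1300s, and WT replicates 3 and 4 had numbers in the 1700s. With that number as a covariate, the log2FC of Fth1 was 0.15, that of Slc11a2 0.0098, that of Steap3 -0.22 and that of Ireb2 -0.080. Since all Trpc1-/- samples were in the 1300s, these estimates in effect set them against WT replicates 1 and 2 alone.

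**Figure D1:**
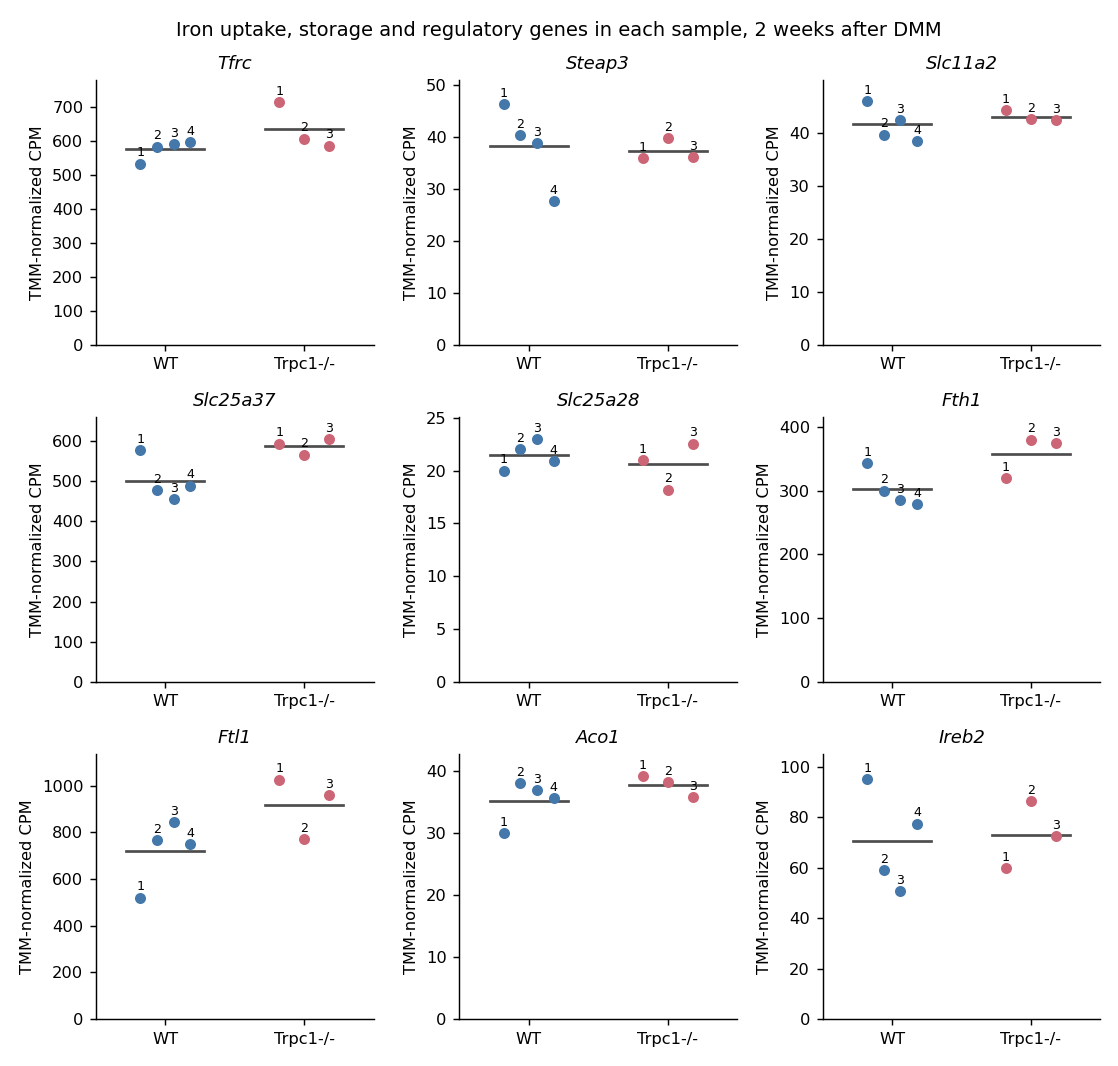
TMM-normalized CPM of the 9 genes in each sample, with a panel per gene, an axis that starts at 0, points numbered by replicate and a line at each group's mean. The groups overlap in every panel, and WT replicate 1 is the highest WT sample for Slc25a37 and Fth1 and the lowest for Tfrc, Ftl1 and Aco1.

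Tfrc encodes the transferrin receptor, the entry point of transferrin-bound iron (chr16:32608920-32632794). It measured 532, 582, 589 and 595 CPM in WT replicates 1 to 4 and 712, 606 and 585 CPM in Trpc1-/- replicates 1 to 3. Only Trpc1-/- replicate 1 stood well above the WT samples, and replicate 3 lay within them. The log2FC was 0.14 (SE 0.11, edgeR adjusted p = 0.638), a fold of 1.10 with a 95% interval of 0.929 to 1.31. Without Trpc1-/- replicate 1 the log2FC was 0.051.

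Steap3 encodes the ferrireductase that reduces iron in the endosome (chr1:120190757-120272705). Its levels were 46.2, 40.4, 38.7 and 27.6 CPM in WT and 35.8, 39.7 and 36.0 CPM in Trpc1-/- samples. The 3 Trpc1-/- values fell inside the WT range, and the WT samples spread more (SD 7.80, n = 4) than the Trpc1-/- samples (SD 2.19, n = 3). Its log2FC was -0.04 (SE 0.16, edgeR adjusted p = 0.935), and 0.061 without WT replicate 1.

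Slc11a2 encodes the divalent metal transporter that releases iron from the endosome (chr15:100387898-100425072). It had 45.9, 39.6, 42.3 and 38.3 CPM in WT and 44.2, 42.6 and 42.3 CPM in Trpc1-/- samples. This was the most even of the 9 genes, with a highest sample 1.20 times the lowest. The log2FC of 0.05 (SE 0.08, edgeR adjusted p = 0.817) had a 95% interval of -0.13 to 0.23, and was 0.10 without WT replicate 1.

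Slc25a37 encodes mitoferrin 1, which brings iron into the mitochondria of red cell precursors (chr14:69241848-69285112). WT replicates 1 to 4 had 577, 478, 456 and 489 CPM, and Trpc1-/- replicates 1 to 3 had 593, 566 and 604 CPM. The Trpc1-/- samples kept close together, 3 of the WT samples lay below all of them, and WT replicate 1 lay among them. The log2FC was 0.23 (SE 0.11, edgeR adjusted p = 0.513, DESeq2 adjusted p = 0.290), a fold of 1.18 with an interval of 0.986 to 1.40. Its paralog Slc25a28 encodes mitoferrin 2, the form found across tissues (chr19:43663801-43674881). Slc25a28 had 20.0, 22.0, 23.0 and 20.9 CPM in WT and 21.0, 18.2 and 22.6 CPM in Trpc1-/- samples. The genotypes overlapped throughout, and the log2FC was -0.06 (SE 0.093, edgeR adjusted p = 0.820), or -0.095 without WT replicate 1.

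Fth1 encodes the ferritin heavy chain, which oxidizes iron as it enters the ferritin shell (chr19:9980598-9985098). It measured 344, 300.4, 285 and 279 CPM in WT and 320, 380 and 375 CPM in Trpc1-/- samples. Again WT replicate 1 was the WT sample that reached into the Trpc1-/- range. The log2FC was 0.25 (SE 0.11, edgeR adjusted p = 0.509, DESeq2 adjusted p = 0.304), a fold of 1.19 with an interval of 0.990 to 1.42. Ftl1 encodes the ferritin light chain, which aids formation of the iron core (chr7:45457944-45459884). Its levels were 519, 766, 842 and 748 CPM in WT and 1026, 769.6 and 958 CPM in Trpc1-/- samples. Here WT replicate 1 was the lowest of all, and Trpc1-/- replicate 2 lay between WT samples. The log2FC was 0.35 (SE 0.18, edgeR adjusted p = 0.537), a fold of 1.28 with an interval of 0.949 to 1.72, and was 0.22 without WT replicate 1.

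Ferritin genes have near-identical copies, and counts derived from coverage could split reads among them. Ftl1-ps1 on chromosome 13, annotated as protein coding, matched the Ftl1 mRNA at 99.6% of 910 aligned bases and held counts equal to 5.87% to 7.43% of those on Ftl1. Ftl2-ps matched at 98.7% and held 2.12% to 2.44%. Both had estimates on the same side as Ftl1, with a log2FC of 0.26 (SE 0.13) and 0.31 (SE 0.16), neither past edgeR's threshold. For Fth1 the largest share was that of Fth-ps2, 86.7% identical over 513 bases, at 0.262% to 0.741%. These copies thus held a minor part of the reads beside the parent genes, and Ftl1 values carry that uncertainty. They were taken by symbols that begin with Ftl or Fth, so copies under other names were not examined.

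Aco1 encodes iron regulatory protein 1, which serves as cytosolic aconitase when it holds an iron-sulfur cluster (chr4:40143081-40198338). It had 29.9, 38.0, 36.8 and 35.6 CPM in WT and 39.1, 38.1 and 35.7 CPM in Trpc1-/- samples. Apart from the low WT replicate 1 the samples were close, and the log2FC was 0.10 (SE 0.094, edgeR adjusted p = 0.698), or 0.030 without it. Ireb2 encodes iron regulatory protein 2, which is degraded when iron is plentiful (chr9:54863789-54912530). It had 95.1, 59.2, 50.7 and 77.5 CPM in WT and 59.9, 86.4 and 72.6 CPM in Trpc1-/- samples. Ireb2 was the most variable of the 9 within both genotypes, with a coefficient of variation of 28.0% in WT and 18.2% in Trpc1-/- samples. Its log2FC of 0.05 (SE 0.23, edgeR adjusted p = 0.946) carried an interval of -0.48 to 0.57, so a change of moderate size in either direction was not detectable here. Without WT replicate 1 it was 0.22.

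**Figure D2:**
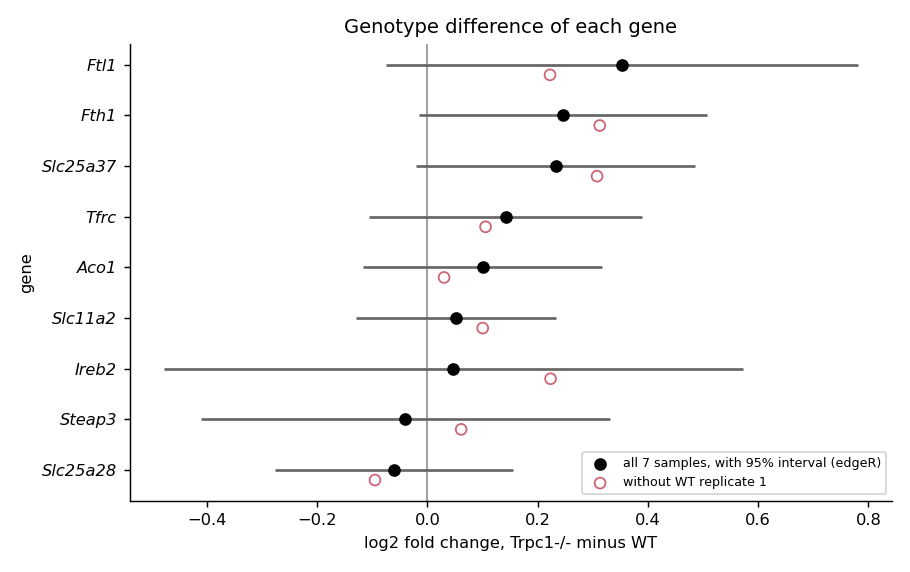
Log2 fold change of each gene, Trpc1-/- minus WT, from edgeR over all 7 samples with its 95% interval (black), and the estimate without WT replicate 1 (open circles). Every interval includes 0; without WT replicate 1 the estimates of Slc25a37 and Fth1 are 0.31 and that of Ftl1 is 0.22.

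Leaving out WT replicate 1 narrowed the spread of Slc25a37 and Fth1. The log2FC of Slc25a37 was then 0.31 (SE 0.068, unadjusted p = 0.00217 and adjusted p = 0.121 by edgeR), and that of Fth1 was 0.31 (SE 0.084, unadjusted p = 0.00648 and adjusted p = 0.155 by edgeR). DESeq2 called both, with adjusted p-values of 2.2e-05 for Slc25a37 and 0.00762 for Fth1. Thus 2 of 9 passed DESeq2 without this sample, against 5.49% of all genes, 2 of 9 had an unadjusted edgeR p under 0.05, against 16.9%, and 0 of 9 passed edgeR's adjusted threshold, against 0.320%. The genotypes no longer overlapped for Slc25a37, Fth1 and Slc11a2, all higher in Trpc1-/- samples, against 22.9% of all genes in either direction. For Slc11a2 the gap was 0.038 CPM, between samples that both round to 42.3 CPM. The calls of Slc25a37 and Fth1 by DESeq2 therefore rested on leaving out WT replicate 1. Without WT replicate 1, 8 of the 9 genes were higher in Trpc1-/- samples, with a median log2FC of 0.11.

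Levels were compared between genes per kilobase of the main mRNA. Ftl1 was the most abundant, at 743 ± 144 CPM per kilobase (SD) in the 4 WT samples and 948 ± 137 in the 3 Trpc1-/- samples. Fth1 followed with 202 ± 19.6 and 240 ± 22.1 on its longer principal transcript of 1494 bases, and with 325 and 386 on the shorter of 929 bases. Slc25a37, at 120 ± 12.8 and 141 ± 4.68, and Tfrc, at 118 ± 5.88 and 130 ± 13.9, did not differ from each other beyond their spread. The other 5 genes were lower by about an order of magnitude, from Slc25a28 at 14.0 ± 0.856 in WT down to Steap3 at 7.41 ± 1.51, with Slc11a2 (13.7), Ireb2 (12.2) and Aco1 (9.16) between them. The neighbours Slc25a28, Slc11a2 and Ireb2 did not differ beyond their spread in WT, and Steap3 was at 13.0 if its shorter transcript was used. Divided by all annotated exon bases, the WT levels were 536 for Ftl1, 92.9 for Tfrc, 87.1 for Fth1 and 83.0 for Slc25a37, so the order among the last 3 depended on the length used.

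The balance between import and storage was described as the mean log2 CPM of Tfrc, Steap3, Slc11a2 and Slc25a37 minus that of Fth1 and Ftl1. It was -1.40, -1.72, -1.76 and -1.79 in WT replicates 1 to 4 and -1.83, -1.80 and -1.98 in Trpc1-/- replicates 1 to 3. Every Trpc1-/- sample was lower than every WT sample, but WT replicates 2 to 4 lay close to the Trpc1-/- values. The mean difference was -0.20 on the log2 scale, with -1.67 ± 0.18 (SD) over the 4 WT samples and -1.87 ± 0.092 over the 3 Trpc1-/- samples. It was -0.11 without WT replicate 1, -0.15 without Trpc1-/- replicate 3 and -0.058 when Slc25a37 and Tfrc were set against Fth1 alone. The mean of the storage side did not overlap, at 8.72, 8.91, 8.94 and 8.84 in WT and 9.16, 9.08 and 9.23 in Trpc1-/- samples. Fth1 and Ftl1 each overlapped on their own. WT replicate 1 was the highest WT sample for Fth1 and the lowest for Ftl1, so its deviations partly cancelled in the mean. The import side overlapped, with 7.05 to 7.32 in WT and 7.25 to 7.33 in Trpc1-/- samples. No p is given for these scores, and no share of like scores over all genes was computed.

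**Figure D3:**
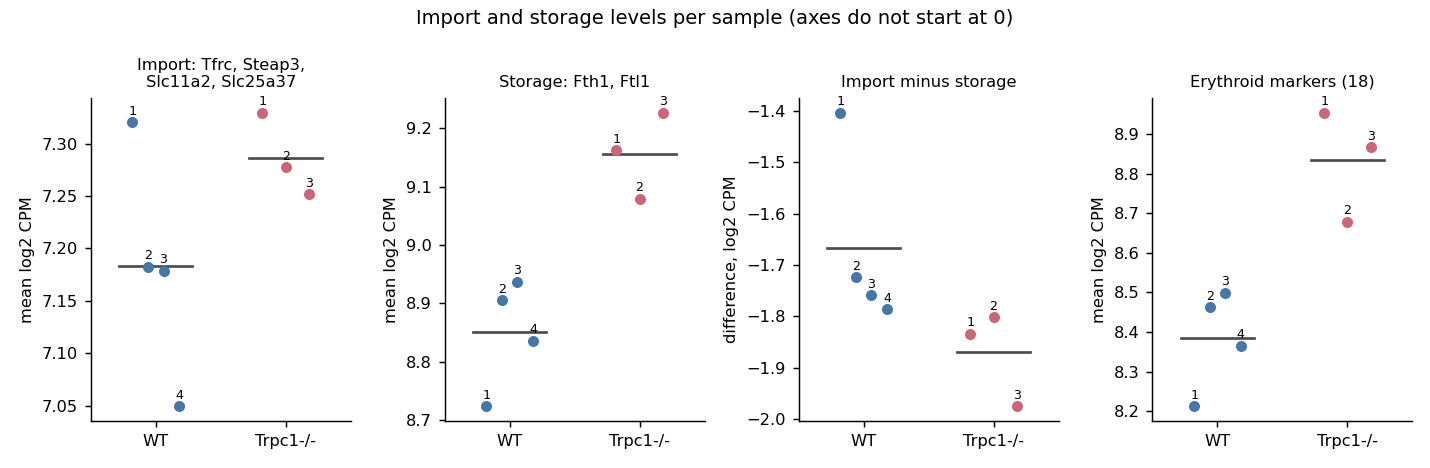
Mean log2 CPM of the 4 import genes, of the 2 storage genes, their difference, and the mean of 18 erythroid marker genes in each sample, with a line at each group's mean and axes that do not start at 0. The means of the storage genes and of the erythroid markers do not overlap between genotypes, though Fth1 and Ftl1 each overlap on their own. WT replicate 1 lies apart at -1.40 in the difference.

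Markers of other cell types were also compared between the genotypes. All 18 tested erythroid markers of 19 listed were higher in Trpc1-/- samples, 12 without overlap, where 13.6% of all genes did not overlap, with a mean log2 CPM of 8.21 to 8.50 in WT and 8.68 to 8.95 in Trpc1-/- samples. Their summed level was 20244 to 37108 CPM in WT and 42923 to 58369 CPM in Trpc1-/- samples, and none was at 0. Of 12 tested macrophage markers 11 were higher (9 without WT replicate 1), 5 without overlap, summing to 534 to 768 CPM in WT and 754 to 858 CPM in Trpc1-/- samples. Chondrocyte markers were lower in 12 of 12, with means of 8.17 to 8.34 in WT and of 7.50, 8.25 and 7.61 in Trpc1-/- replicates 1 to 3, and 2 did not overlap. Osteoblast and osteocyte markers were lower in 9 of 9, 1 without overlap. Neutrophil markers were higher in 10 of 10 but overlapped for each, and this direction rested on WT replicate 1, without which 3 were higher and 7 lower and their median log2FC went from 0.11 to -0.13. The median of the macrophage markers went from 0.29 to 0.14, and the 7 osteoclast markers from 3 higher and 4 lower to 1 higher and 6 lower. The erythroid, chondrocyte, and osteoblast and osteocyte markers kept their directions without it. DESeq2 called 5 erythroid markers and 1 macrophage marker higher and 1 osteoblast or osteocyte marker lower, where it called 1.79% of all genes, and edgeR called none of these lists' genes. What part these cells had in the values of Slc25a37, Fth1, Ftl1 and Tfrc was not tested.

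Ratios within a sample set the genes beside each other and beside Slc4a1, the anion exchanger of the red cell membrane. They are ratios of CPM that are not scaled for mRNA length, so they compare samples and not the levels of the genes. The ratio of Tfrc to Slc4a1 was 0.515, 0.535, 0.540 and 0.581 in WT and 0.490, 0.488 and 0.443 in Trpc1-/- samples. All 3 Trpc1-/- samples were lower, so that Tfrc was higher by a smaller factor than Slc4a1. Slc4a1 was no neutral reference, since it was itself higher in Trpc1-/- samples without overlap. Its log2FC was 0.34 (SE 0.10, adjusted p = 0.410 by edgeR and 0.00505 by DESeq2). The ratio of Slc25a37 to Slc4a1 overlapped, at 0.559, 0.439, 0.418 and 0.477 in WT and 0.408, 0.456 and 0.457 in Trpc1-/- samples. The ratio of Slc25a37 to Slc25a28 was 28.9, 21.7, 19.8 and 23.4 in WT and 28.2, 31.1 and 26.8 in Trpc1-/- samples. As in the counts, WT replicate 1 was the WT sample inside the Trpc1-/- range. The ratio of Fth1 to Ftl1 was 0.663 in WT replicate 1 and 0.312 to 0.494 in the other 6 samples, with no order between genotypes.

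**Figure D4:**
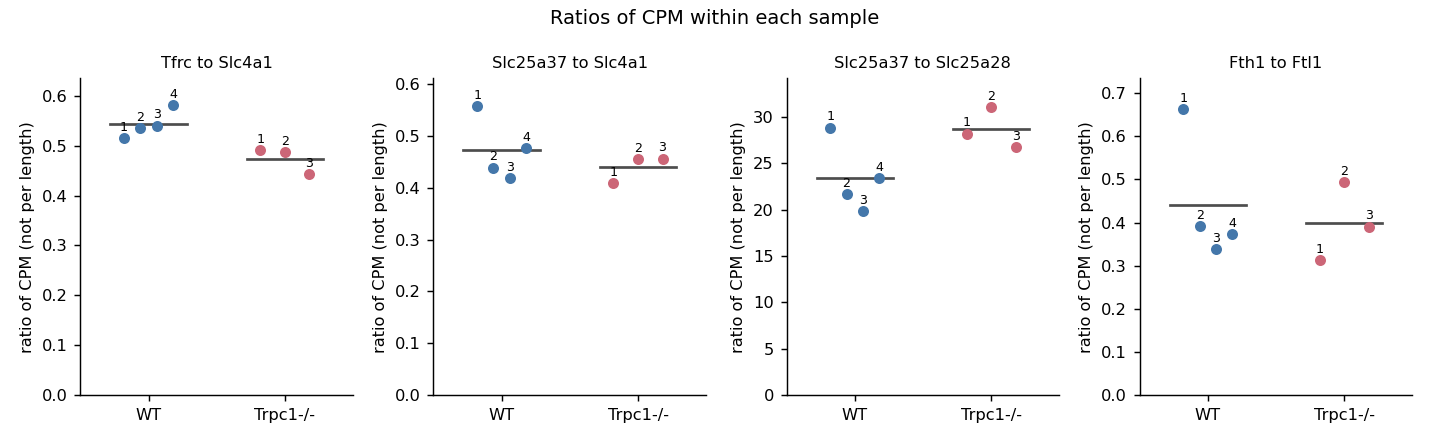
Ratios of CPM, not scaled for mRNA length, within each sample for Tfrc and Slc25a37 to Slc4a1, Slc25a37 to Slc25a28 and Fth1 to Ftl1, with axes from 0, points numbered by replicate and a line at each group's mean. The ratio of Tfrc to Slc4a1 is 0.515 to 0.581 in WT and 0.443 to 0.490 in Trpc1-/- samples, and WT replicate 1 is the highest sample for Slc25a37 to Slc4a1 and for Fth1 to Ftl1.

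The genes whose levels followed each of 3 members most closely over the 7 samples were found by the root mean square difference of centered log2 CPM. For Tfrc, whose own spread was 0.116, they were Pinx1 at 0.027, Daam1 at 0.029 and Slc25a44 at 0.030. For Slc25a37 (0.155) they were Cpeb4 at 0.029, 4933439K11Rik at 0.034 and E2f8 at 0.041. For Fth1 (0.168) they were Pced1b at 0.061, Snhg1 at 0.063 and the pseudogene Tpt1-ps3 at 0.063. Profiles of Tfrc and Slc25a37 thus had closer neighbours than that of Fth1.

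Other genes of iron metabolism were taken from 5 lists of 53 genes, of which 49 were tested. The lists were chosen with earlier results of these data known, so the shares below are descriptions and not an independent test. Of these 34 were higher and 15 lower in Trpc1-/- samples, with a median log2FC of 0.13, or 0.065 without WT replicate 1. EdgeR called 0 of 49, and 10 had an unadjusted p under 0.05 (8 higher, 2 lower), which is 20.4% against 10.0% of all genes. DESeq2 called 4 of 49, all higher, against 1.79% of all genes, and 14 did not overlap between genotypes (13 higher, 1 lower), which is 28.6% against 13.6% of all genes.

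Among export and systemic genes, the iron exporter ferroportin (Slc40a1) measured 158, 205, 211 and 212 CPM in WT and 284, 254 and 296 CPM in Trpc1-/- samples. Every Trpc1-/- sample was higher, with a log2FC of 0.50 (SE 0.13, adjusted p = 0.395 by edgeR and 0.0151 by DESeq2). Hmox1, which releases iron from heme, had 47.4, 78.5, 84.1 and 59.1 CPM in WT and 122, 101 and 136 CPM in Trpc1-/- samples. Its log2FC of 0.83 (SE 0.21, adjusted p = 0.395 by edgeR and 0.0153 by DESeq2) was a larger estimate than that of any of the 9 genes. The list had 6 of 9 higher, or 5 of 9 without WT replicate 1. Slc48a1, which carries heme out of the lysosome, was the other gene without overlap, at a log2FC of 0.26 (SE 0.11). The lowest were the heme transporter gene Flvcr2, at a log2FC of -0.49 (SE 0.20), and Bmp6, a signal that raises hepcidin, at -0.18 (SE 0.092). Macrophages express Slc40a1 and Hmox1, and the macrophage marker values are given above. What part these cells had in the values of Slc40a1 and Hmox1 was not tested.

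The mitochondrial list of iron-sulfur cluster and iron handling genes had 13 of 14 higher and a median log2FC of 0.22. Of the 14, 7 did not overlap, where 13.6% of all genes did not. Without WT replicate 1 it again had 13 of 14 higher, with a median of 0.15. Glrx5, a glutaredoxin of iron-sulfur cluster transfer, had 48.9, 49.0, 53.0 and 49.4 CPM in WT and 71.2, 56.6 and 65.8 CPM in Trpc1-/- samples. Its log2FC was 0.37 (SE 0.089, adjusted p = 0.395 by edgeR and 0.0292 by DESeq2). Iscu, the gene of the cluster scaffold, had a log2FC of 0.32 (SE 0.16) without overlap, and did not pass the threshold of edgeR or DESeq2. Without WT replicate 1 it was 0.18. Also without overlap were Abcb10 (log2FC 0.22), a transporter of the inner membrane, the serine carrier Sfxn1 (0.19, or 0.082 without WT replicate 1) and the ferredoxin Fdx1 (0.12). Fdx2, at low levels of 1.27 CPM in WT and 1.84 CPM in Trpc1-/- samples, had a log2FC of 0.53 (SE 0.27) and overlapped, and Abcb8 was the 1 gene on the lower side, at -0.016, or -0.071 without WT replicate 1. The remaining lists were less uniform. In other uptake and endosome genes 9 were higher and 7 lower, but 6 and 10 without WT replicate 1, with a median log2FC of 0.094 that became -0.063. In this list the zinc and iron transporter gene Slc39a14 averaged 48.9 CPM in WT (SD 5.76, n = 4), against 35.7 CPM in the knockout (SD 4.15, n = 3). Slc39a14 was the 1 gene of the 14 without overlap that was lower (log2FC -0.45, SE 0.12, adjusted p = 0.395 by edgeR and 0.0508 by DESeq2). DESeq2 called it without WT replicate 1 (adjusted p = 0.0142). On the higher side of that list, Cd163, the scavenger receptor for hemoglobin and also on the macrophage list, had a log2FC of 0.42 (SE 0.15) and Exoc6, an exocyst gene needed for transferrin cycling, had 0.15 (0.074 without WT replicate 1), both without overlap. Lcn2, which binds iron-carrying siderophores, had 0.22 (SE 0.36), which turned to -0.051 without WT replicate 1. Slc22a17, the receptor of that protein, was lowest at a log2FC of -0.51 (SE 0.24) and overlapped, and was at -0.30 without WT replicate 1. Genes of ferritin loading and turnover had 4 of 5 higher (5 of 5 without WT replicate 1) and none without overlap, with Ncoa4, the receptor that sends ferritin to the lysosome, at a log2FC of 0.32 (SE 0.19, or 0.17 without WT replicate 1), the iron chaperone gene Pcbp1 at 0.19 (SE 0.13) and Herc2, a ubiquitin ligase gene, at -0.06 (SE 0.12), which turned to 0.043 without WT replicate 1.

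Alas2 and Slc40a1, whose 5' UTR hairpins are printed above, were the 2 of 6 other IRE genes that did not overlap, both higher, and the list was split 3 higher and 3 lower, with the hypoxia-inducible factor gene Epas1 (log2FC -0.22, SE 0.20) and Cdc42bpa (-0.14, SE 0.16) lowest. Both rested on WT replicate 1, without which they were at -0.043 and 0.020 and the list had 5 of 6 higher. Alas2 had 405, 572, 608 and 520 CPM in WT and 899, 703 and 828 CPM in Trpc1-/- samples. Its log2FC was 0.62 (SE 0.16, adjusted p = 0.395 by edgeR and 0.0164 by DESeq2). Alas2 is itself one of the erythroid markers. Beside it, Tfrc with 3' UTR hairpins had a log2FC of 0.14, and Fth1 and Ftl1 with 5' UTR hairpins had 0.25 and 0.35. Protein levels, on which IRE binding acts for the 5' UTR genes, were not analysed here.

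**Figure D5:**
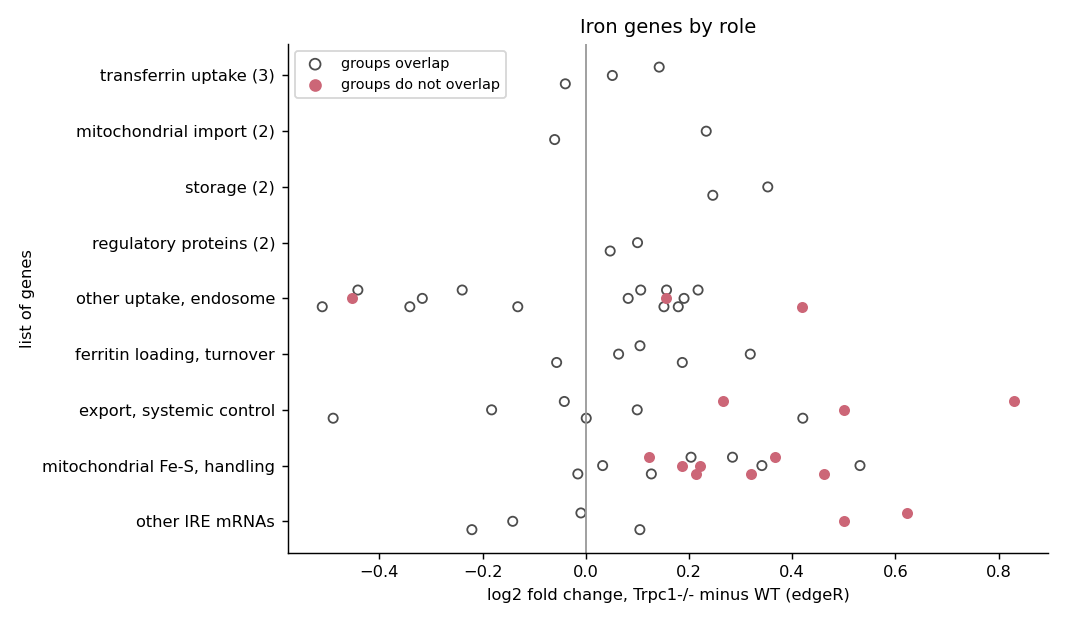
Log2 fold change of each tested iron gene by list, Trpc1-/- minus WT from edgeR, with filled points for genes whose genotypes do not overlap, and with the number of genes in brackets for the 4 groups made up of the 9 genes. None of the 9 is filled, 7 mitochondrial genes are filled and higher, and Slc39a14 is the filled point on the left.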

How the data were processed

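The authors depleted ribosomal RNA, sequenced stranded paired-end libraries, trimmed reads with Cutadapt 2.5, aligned them to GRCm38 with HISAT2 2.1.0 and estimated coverage with StringTie 2.0.3, versions as in the submitters' processing notes. They deposited estimated counts per gene derived from that coverage, not normalized. The values were already whole, so rounding changed none. How reads shared by near-identical copies were assigned was fixed by then, which bears on Ftl1.

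A gene was tested when 2 or more samples exceeded 1 CPM (16429 genes). In R 4.3.3, edgeR 4.0.16 (TMM, quasi-likelihood test, genotype alone in the model) was used, with Benjamini-Hochberg adjustment at 0.05, SEs from the F statistic and 95% intervals. The Methods name DESeq2, which was run as an alternative (1.42.0), as was limma-voom (limma 3.58.1). Log2 CPM used a prior count of 1. Copies were aligned with Biopython 1.88. Gene models and mRNA sequences were those of GENCODE M21.

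The genes named were the 9 members and the ferritin copies found by symbol, the 3 nearest profiles of Tfrc, Slc25a37 and Fth1 and, in each other iron list, the 2 genes with the largest positive and the 2 with the largest negative log2FC and those without overlap. Some genes covered by this rule are not reported here. Trpc1 and Slc4a1 were added for reference. Members and lists were chosen with earlier results of these data known. Other alternatives were 2 normalizations, 2 low-count filters, the replicate number as a block, the mouse number and leaving out each sample. The fits were first tested on simulated data. Replicates are separate pools of mice. Same-numbered replicates are different animals, so the numbers were not taken as pairs. The erythroid marker Ahsp was not analysed here.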

Additional observations from a re-analysis of the deposited data

Results flagged for a closer look

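In the 4 WT samples, 75 values were examined for a sample far from the other 3, by the gap to its nearest neighbour as a share of the group's range, against Dixon's 95% critical value. The values share the same samples, and some were made from the 9 genes or picked by their profiles, so they are not independent. Chance alone flags about 1 in 20 such groups on average, and 13 values passed, 11 of them through WT replicate 1. None of the 9 genes was among them, but 3 quantities made from them were. WT replicate 1 was highest in the import minus storage difference (0.835), the ratio of Fth1 to Ftl1 (0.836) and the ratio of Slc25a37 to Tfrc (0.848). Among the other genes WT replicate 1 was highest for Pced1b (0.902), Slc22a17 (0.854) and Hjv (0.858), and lowest for Slc25a44 (0.912), Hfe (0.899), Slc40a1 (0.885), Hscb (0.909) and Abcb8 (0.874). WT replicate 3 was highest for Glrx5 (0.887), and WT replicate 4 was lowest for Abcb10 (0.848). Slc40a1 did not overlap between genotypes with or without WT replicate 1. Hjv, at a mean of 0.640 CPM in the other WT samples, was called by DESeq2 without WT replicate 1 (log2FC 1.83 and SE 0.52 by edgeR, DESeq2 adjusted p = 0.00737).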

How the results depend on the processing

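Of 144 recomputed log2FC values of the 9 genes, 137 kept their direction and their side of the threshold and 7 turned direction. These concerned small estimates: Steap3 (-0.17 to 0.061 with each sample left out, positive without WT replicate 1), Slc25a28 (-0.13 to 0.014, positive without Trpc1-/- replicate 2) and Ireb2 (-0.099 to 0.22 with each sample left out, negative without WT replicate 2, WT replicate 3 or Trpc1-/- replicate 2, -0.080 with the mouse number as covariate, under which Steap3 was at -0.22, and -0.081 with mouse numbers in the 1300s only). The covariate and the 1300s only both set the Trpc1-/- samples against WT replicates 1 and 2, so their Ireb2 values are not separate results. Over all genes edgeR called 0, DESeq2 294 and limma-voom 1, and edgeR called 0 to 52 with each sample left out, the 52 without WT replicate 1. DESeq2 without each sample in turn, chosen after seeing the data along with the lists without WT replicate 1, called 2 of the 9 genes without WT replicate 1 and 0 otherwise. The 0 of 9 without overlap became 2 with library totals (Slc25a37 and Fth1, where 11.2% of all genes did not overlap), 3 with column numbers in the 1300s only (Tfrc and Ftl1 higher, Steap3 lower, where 34.9% did not) and 0 to 3 with each sample left out (3 without WT replicate 1, 1 without WT replicate 3, and 1, 2 and 2 without Trpc1-/- replicates 1, 2 and 3, where 15.1% to 28.8% of all genes did not). These shares were also added after seeing the data. Same-numbered samples shared only a number (correlations of their deviations -0.35, -0.20 and -0.044). The fit with the replicate number as a block left out WT replicate 4, which had no Trpc1-/- sample of the same number. In it the count of edgeR calls stayed 0 (with 972 genes under an unadjusted p of 0.05), and 3 of the 9 moved 1 way in all pairs (Steap3 lower, Slc25a37 and Ftl1 higher, where 35.6% of all genes did). The import minus storage difference was -0.24, the same value as without WT replicate 4 and so not a separate result. That difference lay between -0.31 (1300s only) and -0.058 and kept its sign. Library totals moved the median of all genes to -0.067 and that of the 9 genes to 0.038. The cause of these shifts was not tested. With 4 and 3 pooled samples, differences of the size seen for Ireb2 and Steap3 were not detectable.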
